A study of Homo sapiens with 6 samples.

Results

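MYD88 is the adaptor protein that Toll-like receptors and interleukin-1 receptors share. The genes described here are MYD88 and 9 genes of the signalling around it, IRAK1, IRAK2, IRAK4, TRAF6, TIRAP, TICAM1, TOLLIP, TAB2 and MAP3K7. These 9 are called partners as a short name, although TICAM1 belongs to a separate route and TAB2 and MAP3K7 act after TRAF6. The set was chosen by gene name around MYD88, and MYD88 itself was selected on its measured fall in these samples, so its values are given as a description without a test. The other 9 genes were tested. All 10 were found among the 58735 genes of the expression table, and all 10 passed the filter on low counts that left 15089 genes for testing. RNA-seq was carried out in PANC-1 cells, an established human cell line from a pancreatic ductal adenocarcinoma, grown in medium with serum. A group of 3 samples received control siRNA (si-NC) and a group of 3 samples received siRNA against METTL16 (si-METTL16), an enzyme that places the m6A methyl mark on RNA. The control samples are titled si-NC, while their transfection label reads WT, and the labels name no other allele or agent. The methods call the triplicates biological and the cells stably transfected, without naming the siRNA used or a time after transfection, and all samples come from this 1 cell line. Another section of the methods describes METTL16 silencing in PANC-1 cells with shRNA and the selection of stable cells with puromycin. Whether that applies to the sequenced samples is not stated.

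Ligand binding brings the intracellular TIR domains of a Toll-like or interleukin-1 receptor together with MYD88, for some receptors through the bridging adaptor TIRAP. MYD88 then gathers the kinases IRAK4, IRAK1 and IRAK2 into an assembly called the Myddosome, which passes the signal to the ubiquitin ligase TRAF6 and on to the kinase TAK1, encoded by MAP3K7, with its binding partner TAB2. TAK1 switches on the IKK complex, which frees NF-kB, and MAP kinases, while the adaptor TRIF, encoded by TICAM1, serves TLR3 and TLR4 on a route to interferon. TOLLIP binds receptor and IRAK1 and is known as a brake on the route.

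The 6 libraries held between 15725298 and 18054436 counts, so that 3 counts corresponded to between 0.167 and 0.192 CPM (the count scaled to a common library size, with a TMM correction for library composition). METTL16 stood at 91.4, 96.5 and 100 CPM in the si-NC samples and at 34.7, 33.8 and 34.8 CPM in the si-METTL16 samples (log2 fold change -1.48, SE 0.07, adjusted p = 8.3e-05). Unless another tool is named, each adjusted p comes from the quasi-likelihood test of edgeR, corrected by the Benjamini-Hochberg method over 15089 genes. Across all tested genes, 35.9% passed an adjusted p under 0.05, 18.4% with a higher and 17.5% with a lower level in si-METTL16 cells, and the median log2 fold change was -0.004. The 6 ductal epithelial markers, led by KRT8 and KRT18, summed to between 2850 and 3920 CPM in si-NC and between 3100 and 3400 CPM in si-METTL16 samples, but this sum is carried by KRT8 and KRT18. Of the 6, KRT19 fell from 190 to 71.9 CPM (log2 fold change -1.40, adjusted p = 0.00111), CDH1 by 1.09 on the log2 scale (adjusted p = 0.00594) and KRT7, which was low, by 0.84 (adjusted p = 0.0117). EPCAM was low as well. Of 7 leukocyte markers 6 had a mean under 1 CPM, and the 7 summed to between 6.78 and 7.47 CPM in si-NC and between 8.61 and 10.2 CPM in si-METTL16 samples, the difference lying mainly in CD68 (5.48 and 8.73 CPM). Of 3 endothelial markers all 3 were under 1 CPM. The part of these markers in the results was not tested.

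The sequences of the siRNAs are shown because the first bases of a guide strand, its seed, can also act on other mRNAs that carry the matching bases in their 3′ UTR. The supplementary list of the study holds a control and 3 METTL16 target sequences. Whether the 3 samples received 1 of them, each its own or a mixture is not stated in the sources used here. The samples are titled si-METTL16-1, si-METTL16-2 and si-METTL16-3, as the sequences are numbered, but the si-NC titles carry such numbers as well. Samples with different siRNAs and replicates of 1 siRNA therefore cannot be told apart. In the lines that follow, written 5′ to 3′ as the sense strand, capitals mark bases 12 to 18, which pair with bases 2 to 8 of the guide.
NC: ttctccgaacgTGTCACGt
METTL16-1: ccttgagactcAACTATAt
METTL16-2: ccgcctagttcTGTTAATa
METTL16-3: ccaccaagtaaGCGAAGAa
The 3 METTL16 targets lie in coding sequence of METTL16 on the minus strand of chromosome 17 (GRCh38, GENCODE v44), the METTL16-1 target in exon 3 at chr17:2477757-2477775, the METTL16-2 target in exon 6 at chr17:2464302-2464320 and the METTL16-3 target in exon 9 at chr17:2420883-2420901. The MANE Select transcript of MYD88, the reference transcript agreed between Ensembl and RefSeq, held 0 matches to any of the 4 heptamers over its 2667 bases. Of the other 9 genes, 3 carried 1 match each in the 3′ UTR of that transcript, shown here with the heptamer in capitals.
IRAK4, METTL16-1: aacgggctAACTATAtaaatttg
MAP3K7, METTL16-2: aaaaggagTGTTAATtgttccca
IRAK2, METTL16-3: gacacctaGCGAAGAgctctgca
These sites lie at chr12:43789472-43789494 on the plus strand, chr6:90514852-90514874 on the minus strand and chr3:10242880-10242902 on the plus strand. Among 12379 tested genes with a MANE 3′ UTR, the NC heptamer occurred in 3.09%, the METTL16-1 heptamer in 11.4%, the METTL16-2 heptamer in 20.4% and the METTL16-3 heptamer in 1.49%. A match describes the letters, and its part in a difference was not tested. The nonamer UACAGAGAA, which is bases 40 to 48 of U6 snRNA around the base that METTL16 methylates, and which recurs in hairpins of MAT2A mRNA, occurred in the MANE transcript of MAP3K7 and of no other gene of the 10, against 3.97% of 12383 transcripts and 5 copies in MAT2A. Only the letters were searched here, and whether the match in MAP3K7 lies in a hairpin or is methylated was not tested.

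The promoter of MYD88 is shown beside that of IRAK2, since these genes had the largest falls of the set. The windows are the 250 bases before the RefSeq start of each gene (GRCh38.p14), at chr3:38138411-38138660 on the plus strand for MYD88 and chr3:10164669-10164918 on the plus strand for IRAK2. In the coordinates of the expression table both genes start earlier, MYD88 at 38138478 and IRAK2 at 10164865, so the later part of each window, with the interferon element of MYD88, lies within the gene as tabulated. Capitals mark matches to GGGCGG (the GC box) and to the core of the interferon response element (GAAA, any 2 bases, then GAAA again), searched on both strands.
MYD88: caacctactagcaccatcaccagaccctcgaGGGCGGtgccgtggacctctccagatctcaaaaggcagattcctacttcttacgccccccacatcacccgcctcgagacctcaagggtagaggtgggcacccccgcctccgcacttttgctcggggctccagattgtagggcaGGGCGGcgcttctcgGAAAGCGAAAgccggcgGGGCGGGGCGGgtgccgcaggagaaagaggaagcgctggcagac
IRAK2: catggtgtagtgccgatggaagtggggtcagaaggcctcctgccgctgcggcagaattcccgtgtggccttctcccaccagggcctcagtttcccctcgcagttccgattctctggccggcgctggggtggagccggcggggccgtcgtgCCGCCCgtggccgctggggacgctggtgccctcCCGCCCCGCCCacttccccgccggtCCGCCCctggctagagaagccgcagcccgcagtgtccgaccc
Both windows held 4 GC boxes, of which the 2 adjoining ones share a base, and all 9 of the genes with an entry (TIRAP had none) held at least 1, as did 42.6% of 35116 promoter windows. The interferon element occurred once in the MYD88 window, at position -61 from the start, and in no other window of the 9 genes, against 3.02% of all windows. A form of the NF-kB site (GGG, any 2 bases, then TTTCC) occurred in the TICAM1 window only of the 9 (1.73% of all windows), and TGANTCA, the AP-1 site, in none of them (6.57% of all windows).

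MYD88 had 831, 983 and 951 counts in si-NC replicates 1, 2 and 3 and 168, 222 and 249 counts in the si-METTL16 replicates. After scaling these were 49.1, 57.8 and 54.2 CPM against 10.2, 14.2 and 13.8 CPM. The lowest control sample was thus far above the highest silenced sample. The group means were 53.7 ± 4.38 and 12.8 ± 2.20 CPM (SD, n = 3 each), so MYD88 stood at 23.8% of its control level, a log2 fold change of -2.07 with an SE of 0.14. Its log2 fold change ranked 61 from the lowest among the 15089 tested genes, and 4 from the lowest among the 7545 genes with a mean at or above the median of 23.2 CPM. As the set was built around this rank, the genes on either side of MYD88 in the order of all tested genes are given once, CEND1 (-2.09) and JAKMIP3 (-2.08) just below it and ADIRF (-2.06) and ROPN1L (-2.05) just above it. In bulk RNA, fewer cells that express a gene and less of its RNA in each cell cannot be told apart. MYD88 lies at chr3:38138478-38143022 in the coordinates of the table, and no other gene of the table overlaps it.

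The genes beside MYD88 on chromosome 3 were compared to see whether the fall extended past the gene. ACAA1, a peroxisomal thiolase of fatty acid oxidation, has coordinates that end 1235 bases before those of MYD88. It had 678, 767 and 774 counts in si-NC and 703, 629 and 762 counts in si-METTL16 samples. Its levels overlapped, at 43.1 ± 2.67 and 41.8 ± 1.34 CPM (log2 fold change -0.04, SE 0.08, adjusted p = 0.701 by edgeR). OXSR1, a stress-responsive kinase whose gene starts 22066 bases after MYD88, rose from 102 ± 9.32 to 153 ± 7.86 CPM (log2 fold change 0.58, SE 0.08, adjusted p = 0.00185). Neither neighbour was called lower.

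**Figure D1:**
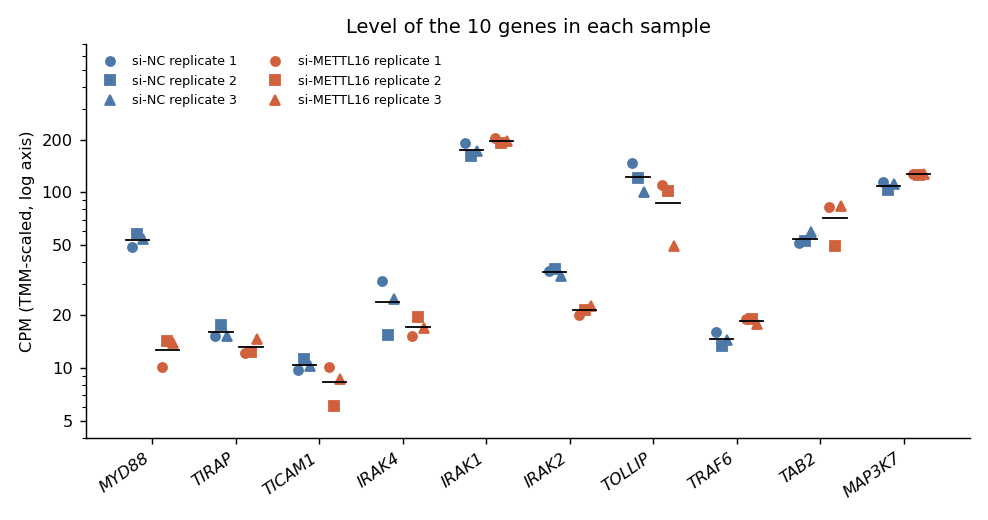
Level of MYD88 and its 9 partners in each of the 6 samples, in CPM on a log axis, with si-NC samples in blue, si-METTL16 samples in orange, a shape for each replicate number and a bar at each group mean. MYD88, which was chosen for its fall, goes from between 49.1 and 57.8 CPM to between 10.2 and 14.2 CPM.

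The other adaptors did not pass the test. TIRAP, which bridges MYD88 to TLR2 and TLR4, had 15.2, 17.6 and 15.2 CPM in si-NC and 12.2, 12.4 and 14.7 CPM in si-METTL16 samples. The groups did not overlap, yet the difference was small (log2 fold change -0.29, SE 0.12, adjusted p = 0.105). TICAM1, the TRIF adaptor, had 9.69, 11.3 and 10.3 CPM against 10.2, 6.08 and 8.61 CPM. Its groups overlapped, with si-METTL16 replicate 1 among the control values (log2 fold change -0.33, SE 0.20, adjusted p = 0.231). Some reads given to TIRAP could stem from AP001318.2 or AP001318.1, which overlap it in the table, since the use of strand in counting is not given in the sources used here; the counts assigned to either were low, with means of at most 0.64 CPM for any gene overlapping one of the 10.

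Of the 3 kinases of the Myddosome, 1 passed the test, and differences between them were not tested. IRAK2, a kinase-like member that binds TRAF6, was the partner with the clearest fall, with 35.9, 36.6 and 33.6 CPM in si-NC and 20.1, 21.4 and 22.6 CPM in si-METTL16 samples. The 2 groups stood well apart, at 35.3 ± 1.59 and 21.4 ± 1.21 CPM (60.5% of control, log2 fold change -0.73, SE 0.09, adjusted p = 0.000916). The call held under all 14 alternative fits, with log2 fold changes between -0.77 and -0.66 and adjusted p between 3.1e-08 and 0.00666. IRAK4, the kinase that joins MYD88 first and phosphorylates IRAK1, had 31.3, 15.4 and 24.8 CPM against 15.2, 19.5 and 16.8 CPM. The spread among controls was wide, with si-NC replicate 2 at the level of the silenced samples, and the difference did not pass (log2 fold change -0.48, SE 0.25, adjusted p = 0.176). Without si-NC replicate 2 it was -0.72 and passed (adjusted p = 0.0185). IRAK1, the kinase that carries the signal from the Myddosome to TRAF6 and the most abundant of the 3, had 191, 162 and 173 CPM against 203, 192 and 195 CPM. Every silenced sample was above every control sample by a small margin that did not pass (log2 fold change 0.17, SE 0.07, adjusted p = 0.113). Without si-NC replicate 1 its log2 fold change was 0.23 and passed (adjusted p = 0.0461). TOLLIP, the brake, had 147, 121 and 100 CPM against 110, 102 and 49.7 CPM. The low value of si-METTL16 replicate 3 set much of this difference (log2 fold change -0.50, SE 0.29, adjusted p = 0.217), which was -0.22 without that sample.

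Downstream of the Myddosome 2 of the 3 genes rose by small amounts. TRAF6, the ubiquitin ligase, had 16.1, 13.3 and 14.4 CPM in si-NC and 19.0, 19.1 and 17.7 CPM in si-METTL16 samples. The groups did not overlap and TRAF6 rose to 127% of control (log2 fold change 0.35, SE 0.11, adjusted p = 0.0400). The call was lost in 8 of 14 alternative fits, with adjusted p between 0.0361 and 0.114 over all of them, among them the DESeq2 Wald test (0.0521) and 5 of the 6 leave-one-out fits, all but that without si-NC replicate 1. MAP3K7, the TAK1 kinase, had 114, 103 and 111 CPM against 127, 126 and 127 CPM. The silenced samples were nearly equal and MAP3K7 rose to 116% of control (log2 fold change 0.21, SE 0.06, adjusted p = 0.0310). This call was lost in 6 of 14 alternative fits, with adjusted p between 0.0278 and 0.0994, including each fit without a sample other than si-NC replicate 1. TAB2, which ties TAK1 to ubiquitin chains, had 51.2, 52.9 and 59.8 CPM against 82.8, 49.7 and 83.4 CPM. The silenced samples split, replicate 2 lying below every control sample and the other 2 above them (log2 fold change 0.40, SE 0.20, adjusted p = 0.154). Without si-METTL16 replicate 2 the log2 fold change was 0.60 and passed (adjusted p = 0.00631).

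Of the 9 partners, 3 passed the test, 2 of them higher (TRAF6 and MAP3K7) and 1 lower (IRAK2), and 6 did not pass. This share of 33.3% is close to the 35.9% of all tested genes, and the shares by direction in all genes were 18.4% higher and 17.5% lower. Their median log2 fold change was -0.29, beside -0.004 over all tested genes. Groups did not overlap in IRAK1, TRAF6 and MAP3K7, which were higher, against 25.7% of all genes, and in IRAK2 and TIRAP, which were lower, against 25.2% of all genes. None of the 9 moved as far as MYD88, which is a description only, as MYD88 was chosen for its fall. In fits on counts with 1 of these same samples left out, the smallest log2 fold change of MYD88 was -1.94. With 3 samples against 3, permuting the samples of 1 gene gives no exact p below 0.1, so the calls rest on the edgeR fit across all genes.

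**Figure D2:**
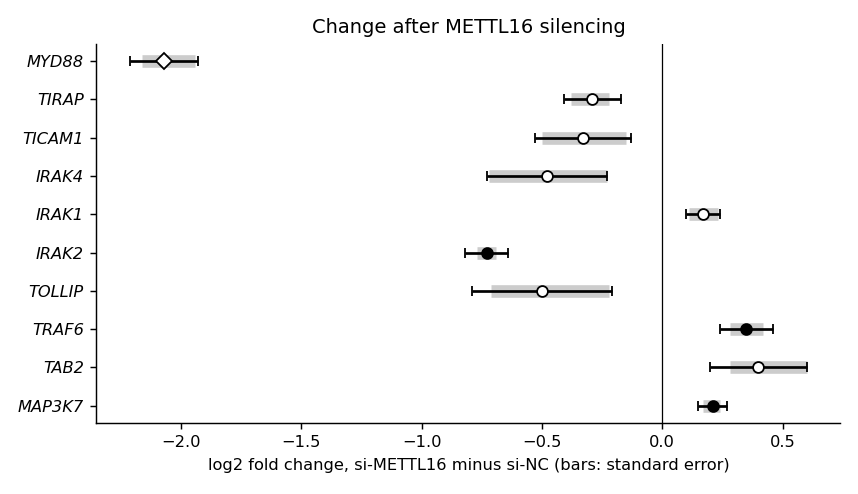
Log2 fold change of each of the 10 genes, si-METTL16 minus si-NC, with the standard error as a bar and, in grey, the range of the 6 fits that each left out 1 sample. Filled circles passed an adjusted p under 0.05, open circles did not, and the open diamond is MYD88, which was not tested. Among the partners, IRAK2 is the only gene whose whole range lies below -0.6.

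To compare the genes with each other, CPM was divided by the length of each gene's joined exons (GENCODE v44), which gives CPM per kilobase. On this scale the order in si-NC cells ran from IRAK1 (41.1 ± 3.38) and TOLLIP (20.5 ± 3.90) through MYD88 (12.8 ± 1.04), MAP3K7 (11.5 ± 0.615), IRAK2 (10.3 ± 0.462) and TAB2 (8.94 ± 0.740) to TICAM1 (3.88 ± 0.303), IRAK4 (3.26 ± 1.09), TIRAP (2.27 ± 0.193) and TRAF6 (1.80 ± 0.172 CPM per kilobase, SD, n = 3). Neighbours whose samples overlapped were MYD88 and MAP3K7, IRAK2 and TAB2, TICAM1 and IRAK4, and IRAK4 and TIRAP. In si-METTL16 cells MYD88 went from rank 3 to rank 7, at 3.04 ± 0.525 CPM per kilobase, between TICAM1 (3.09 ± 0.768) and IRAK4 (2.35 ± 0.302), and its samples overlapped those of both. The neighbours TOLLIP and MAP3K7, MAP3K7 and TAB2, and IRAK4 and TRAF6 also overlapped there. The ranks depend on the length used. With the MANE Select transcript MYD88 ranked 4 and 7, below MAP3K7 already in si-NC cells, and with the deposited FPKM 5 and 10, below both IRAK2 and MAP3K7 already in si-NC cells. The deposited FPKM of MYD88, 4.70 ± 0.385 and 1.10 ± 0.194, implies a length of 11502 bases, more than the 4545 bases that the gene spans in the same table. Such a length above the span was found for 9.61% of the 14124 genes with at least 100 counts, so FPKM was not used here to compare genes. A fold change within a gene does not depend on the length.

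**Figure D3:**
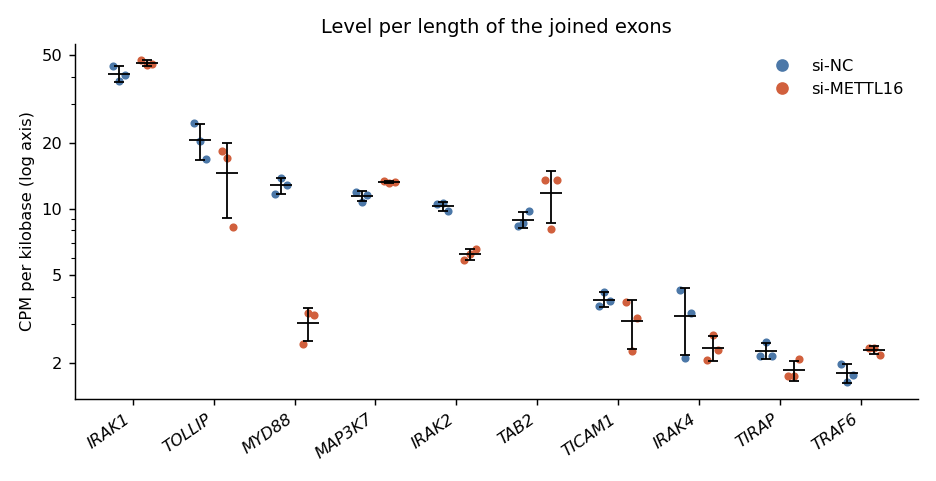
CPM per kilobase of joined exons on a log axis for the 10 genes, ordered by the si-NC mean, with points for samples, a line for the group mean and error bars for 1 SD (n = 3). MYD88 goes from 12.8 to 3.04 CPM per kilobase, to the level of TICAM1 and IRAK4.

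The genes with a profile most like that of MYD88 over the 6 samples were ABCG2, a drug efflux pump, BZW2, a regulator of translation start, SMS, the spermine synthase, LASP1, an actin-binding protein, and ARHGEF2, an activator of RhoA. Likeness was the root mean square difference of log2 CPM relative to the si-NC mean, among genes at or above the median level. It was 0.19 for ABCG2, 0.25 for BZW2, 0.31 for SMS, 0.35 for LASP1 and 0.36 for ARHGEF2. ABCG2 had 74.3, 77.2 and 75.9 CPM in si-NC and 18.9, 17.3 and 20.1 CPM in si-METTL16 samples (log2 fold change -2.02, SE 0.08). These genes were picked for their likeness and their fall is a description. None belongs to the receptor route.

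Upstream of MYD88, few receptors were expressed in PANC-1 cells. Of 10 Toll-like receptors 3 passed the filter, TLR6 at 7.10 ± 1.05 CPM in si-NC cells, TLR4 at 2.53 and TLR1 at 1.66. The latter pair are named after their values were seen, as are TLR3 and TLR10, which had 0 counts in all 6 samples, which allows up to 0.192 CPM in the smallest library. TLR6, which pairs with TLR2 to sense bacterial lipopeptides, had 5.88 ± 1.44 CPM in si-METTL16 cells (log2 fold change -0.27, adjusted p = 0.365). By edgeR 0 of the 3 receptors passed, 0 had an unadjusted p under 0.05, and DESeq2 and limma voom also called 0. Of 8 genes of the interleukin-1 receptor family 4 were tested and edgeR called 0, with 2 at an unadjusted p under 0.05, 2 called by DESeq2 and 1 by limma voom. SIGIRR, a receptor that dampens the route, had 34.7, 36.1 and 23.0 CPM against 26.2, 14.4 and 15.6 CPM. Its groups overlapped (log2 fold change -0.74, SE 0.27, adjusted p = 0.0677), and it passed with the DESeq2 Wald test (adjusted p = 0.0161), without si-METTL16 replicate 1 (-1.06, adjusted p = 0.0146) and without si-NC replicate 3 (-0.92, adjusted p = 0.0443). IL1R1 and IL1RAP, the 2 chains of the interleukin-1 receptor, and IL1RL1, the receptor of IL-33, are named after their values were seen. IL1R1 had 9.74 ± 0.654 and 8.17 ± 0.948 CPM (log2 fold change -0.26, SE 0.14, adjusted p = 0.183) and IL1RAP 9.55 ± 1.64 and 7.22 ± 1.34 CPM (-0.40, SE 0.19, adjusted p = 0.137). IL1RL1 was near the floor in si-NC cells, with a mean of 0.408 CPM, and at 1.34 CPM in si-METTL16 cells. Its groups did not overlap, and edgeR did not call it (log2 fold change 1.7, SE 0.56, adjusted p = 0.0508). This was the highest log2 fold change of the 68 tested pathway genes, on low counts. IL1RL1 was the gene that DESeq2 called beside SIGIRR and the 1 that limma voom called.

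Among the ligands IL18 and HMGB1 were measured of 11 listed, while IL1B and IL33 had 0 counts in every sample. HMGB1, a nuclear protein that can signal through TLR4 once released, fell from 295 ± 42.2 to 192 ± 39.9 CPM (log2 fold change -0.62, SE 0.16, adjusted p = 0.0226), a call that was lost in 4 of the 6 fits without a sample (without si-METTL16 replicates 1 and 2 and si-NC replicates 1 and 3, with adjusted p up to 0.0744). HMGB1 has pseudogene copies, and reads shared with them make its level uncertain. Of 7 receptor co-factors 5 were tested and 2 passed, both lower. UNC93B1, which escorts the endosomal Toll-like receptors, had 41.7, 37.2 and 37.7 CPM in si-NC and 22.1, 25.9 and 21.4 CPM in si-METTL16 samples. The gap was wide against the spread (log2 fold change -0.75, SE 0.10, adjusted p = 0.00174). CD14, the co-receptor for lipopolysaccharide, fell from 3.30 ± 0.360 to 1.64 ± 0.626 CPM (log2 fold change -1.0, SE 0.31, adjusted p = 0.0409), with the call lost in 7 alternative fits, 5 of them without 1 sample (all but si-METTL16 replicate 1, with adjusted p up to 0.114). HSP90B1, the chaperone of many Toll-like receptors and the most abundant of the list, had 802 and 704 CPM (log2 fold change -0.19, adjusted p = 0.0805).

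Among the other adaptors and regulators of the Myddosome, 6 of 8 were tested and edgeR called 0, with 0 at an unadjusted p under 0.05 and 0 called by DESeq2 or limma voom. PELI1, a ubiquitin ligase that acts on IRAK1, had 12.3 ± 1.20 and 10.9 ± 2.27 CPM (log2 fold change -0.17, adjusted p = 0.476). In the list of the TAK1 complex and its ubiquitin ligation, 7 of 7 were tested and 2 passed, both subunits of the linear ubiquitin ligase LUBAC. RBCK1 had 88.2, 58.1 and 67.5 CPM in si-NC and 36.6, 40.0 and 36.1 CPM in si-METTL16 samples (log2 fold change -0.92, SE 0.15, adjusted p = 0.00359). RNF31, its catalytic partner, had 17.8, 16.5 and 16.5 CPM against 9.74, 12.2 and 11.7 CPM (log2 fold change -0.59, SE 0.12, adjusted p = 0.00842). SHARPIN, the remaining LUBAC subunit, named after its value was seen, did not pass (log2 fold change -0.21, adjusted p = 0.197). UBE2N, the enzyme that builds ubiquitin chains with TRAF6, had 121 and 101 CPM (-0.26, adjusted p = 0.127), and it passed without si-NC replicate 2 (-0.39, adjusted p = 0.00958).

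In the IKK complex and NF-kB family 2 of 8 passed, both lower, which sets 0 higher and 2 lower beside the 18.4% and 17.5% of all genes. CHUK, the kinase IKK alpha, fell from 75.5 ± 2.06 to 52.1 ± 3.31 CPM (log2 fold change -0.54, SE 0.07, adjusted p = 0.00167). NFKB2, the precursor of p52, fell from 55.3 ± 5.35 to 37.9 ± 3.65 CPM (-0.54, SE 0.11, adjusted p = 0.00761). These genes serve the non-canonical NF-kB route as well. RELA, the main activating subunit, named after its value was seen, was at 109 and 107 CPM (-0.03, adjusted p = 0.777).

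The TRIF arm, which leads from TICAM1 to interferon, had 1 of 9 genes higher and 1 lower, against 18.4% and 17.5% of all genes. TRAF3, the ligase that passes the signal to TBK1, had 13.4, 12.8 and 13.3 CPM in si-NC and 21.7, 23.1 and 16.7 CPM in si-METTL16 samples (log2 fold change 0.64, SE 0.14, adjusted p = 0.0110). RIPK1, a kinase at the branch to NF-kB and cell death, fell from 102 ± 4.04 to 85.4 ± 3.66 CPM (-0.26, SE 0.07, adjusted p = 0.0191), but not without si-METTL16 replicate 3 (-0.22, adjusted p = 0.0627) or si-NC replicate 3 (-0.23, adjusted p = 0.0731). TBK1 itself, the kinase that activates IRF3, was at 110 and 107 CPM (-0.04, adjusted p = 0.704).

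The MAP kinase arm had 3 of 8 genes higher and 2 lower, where 18.4% and 17.5% of all genes were. MAP2K6, an activator of p38, had the lowest log2 fold change of all 68 tested pathway genes. Its levels were 8.45, 11.1 and 10.1 CPM in si-NC and 4.02, 1.60 and 1.72 CPM in si-METTL16 samples. It fell about as far as MYD88 (log2 fold change -2.02, SE 0.35, adjusted p = 0.00435), but on low counts of 66, 25 and 31 in the si-METTL16 samples. With 1 sample left out its log2 fold change ran from -2.57 to -1.79, and that of MYD88 from -2.16 to -1.94. The call of MAP2K6 held in all 6 of these fits (adjusted p up to 0.0172 by edgeR). MAP2K3, the other p38 activator, moved the opposite way, from 41.4 ± 5.34 to 60.3 ± 10.3 CPM (0.54, SE 0.15, adjusted p = 0.0254), a call lost without si-METTL16 replicate 1 (0.39, adjusted p = 0.0587), si-NC replicate 2 (0.44, adjusted p = 0.0780) or si-NC replicate 3 (0.55, adjusted p = 0.0671). MAP3K8, the kinase TPL2 that feeds the ERK branch, rose from 11.0 ± 0.872 to 17.6 ± 2.55 CPM (0.67, SE 0.14, adjusted p = 0.00905). The calls of MAP2K4 (lower) and MAP2K7 (higher), the activators of JNK, are counted here and named after their values were seen.

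Among the negative regulators 1 of 7 tested genes was higher and 3 were lower, beside 18.4% and 17.5% of all genes. DUSP1, a phosphatase that switches off p38 and JNK, had 48.5, 56.1 and 57.6 CPM in si-NC and 122, 102 and 108 CPM in si-METTL16 samples (log2 fold change 1.03, SE 0.10, adjusted p = 0.000403). SOCS1, an inhibitor of cytokine receptors that also curbs TIRAP, was low and fell from 2.68 ± 0.539 to 1.18 ± 0.126 CPM (-1.18, SE 0.26, adjusted p = 0.0107). TNIP1, a ubiquitin-binding inhibitor of NF-kB, fell from 78.8 ± 8.26 to 56.1 ± 6.38 CPM (-0.49, SE 0.11, adjusted p = 0.0133). CYLD, a deubiquitinase named after its value was seen, was the third gene that fell.

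The genes that NF-kB is known to switch on had 2 of 9 tested higher and 3 lower, beside 18.4% and 17.5% of all genes. BIRC3, an inhibitor of apoptosis and ubiquitin ligase, had 168, 167 and 166 CPM in si-NC and 45.6, 64.0 and 60.1 CPM in si-METTL16 samples. It stood at 33.9% of control (log2 fold change -1.56, SE 0.12, adjusted p = 0.000216). SOD2, the mitochondrial superoxide dismutase, had 39.2, 46.4 and 53.9 CPM against 147, 152 and 66.6 CPM. Every silenced sample was above every control sample, with si-METTL16 replicate 3 the lowest of the 3 (log2 fold change 1.39, SE 0.30, adjusted p = 0.0113). NFKBIZ, a nuclear co-factor of NF-kB that is strongly induced through MYD88, rose from 7.29 ± 3.47 to 14.7 ± 1.28 CPM (1.02, SE 0.32, adjusted p = 0.0452), and the call was lost in 6 alternative fits, among them those without any 1 of the si-METTL16 samples or without si-NC replicate 3 (adjusted p up to 0.113). IER3 was level at 154 and 159 CPM (0.05, adjusted p = 0.478). CCL2, a monocyte chemokine, and NFKBIA, the inhibitor that retains NF-kB in the cytoplasm, were the other genes that fell and are named after their values were seen. CCL2 went from 43.4 ± 4.88 to 24.5 ± 6.46 CPM (-0.82, SE 0.19, adjusted p = 0.0133) and NFKBIA from 54.5 ± 9.80 to 33.0 ± 2.14 CPM (-0.72, SE 0.14, adjusted p = 0.00662). The cytokines IL6 and TNF did not pass the filter.

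Over all 11 lists of the route beyond the 10 genes, 68 of 98 genes were tested. Of the 68, 7 were higher and 16 lower, beside 18.4% and 17.5% of all genes. The 33.8% called in either direction is close to the 35.9% of all genes, with a median log2 fold change of -0.23 against -0.004. MAP2K6 and BIRC3 lay farthest below this median.

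**Figure D4:**
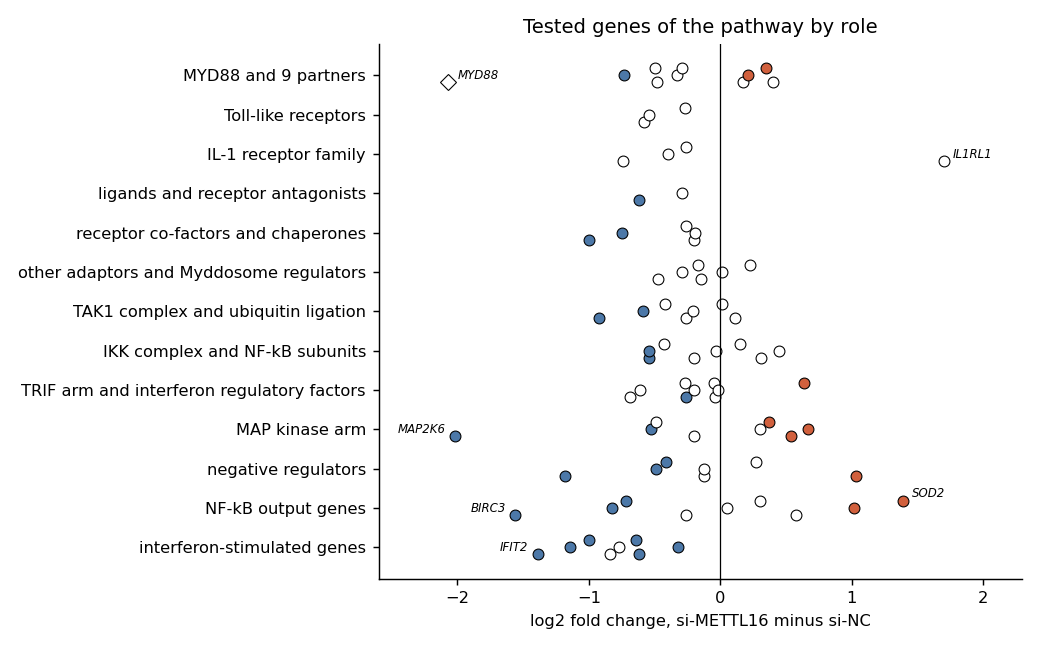
Log2 fold change of every tested gene in each role, one row a list, with blue for genes that passed the test and were lower, orange for those that passed and were higher, white for those that did not pass and a diamond for MYD88, which was not tested. MYD88 (-2.07), MAP2K6 (-2.02), BIRC3 (-1.56), IFIT2 (-1.39) and SOD2 (1.39) lie farthest out among genes shown as called or as MYD88.

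MYD88 carries the interferon element given above, and the interferon-stimulated genes were therefore set beside it. Of 11 listed genes 8 were tested, and 6 of the 8 fell and 0 rose, against 17.5% and 18.4% of all genes. Their median log2 fold change was -0.80, and in all 8 the si-METTL16 samples lay below the si-NC samples without overlap, as in 25.2% of all genes. DESeq2 and limma voom each called 6 as well. IFIT2, which binds viral RNA, had 31.6, 29.8 and 27.5 CPM in si-NC and 11.3, 11.5 and 11.1 CPM in si-METTL16 samples (38.1% of control, log2 fold change -1.39, SE 0.09, adjusted p = 0.000145). IFIT3, its partner, had 16.0, 12 and 13.0 CPM against 6.27, 6.27 and 6.11 CPM (-1.14, SE 0.14, adjusted p = 0.00114). The si-METTL16 samples were nearly equal for both genes. IFI6, a membrane protein of the interferon response, fell from 11.1 ± 2.34 to 5.55 ± 1.20 CPM (-1.0, SE 0.22, adjusted p = 0.0118). ISG15, a ubiquitin-like modifier, fell from 52.4 ± 1.86 to 34.2 ± 2.00 CPM (-0.62, SE 0.08, adjusted p = 0.00128). IFIT1 and DDX58, the RNA sensor RIG-I, were the other 2 that fell and are named, with OAS1 and OASL, after their values were seen. OAS1 (adjusted p = 0.0577) and OASL (adjusted p = 0.0759) did not pass. None of the 6 fell as far as MYD88, which was chosen for its fall. The interferon element occurred in the promoter window of 7 of the 8 genes of the list with an entry, IFIT1, IFIT3, ISG15, MX1, IFI6, IFI44 and RSAD2. Of these, IFIT1, IFIT3, ISG15 and IFI6 fell, while MX1, IFI44 and RSAD2 were not tested, and IFIT2, OASL and DDX58 had no entry. OAS1, the entry without the element, also had lower si-METTL16 samples (log2 fold change -0.84) but did not pass. The part of the element in any of these differences was not tested.

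**Figure D5:**
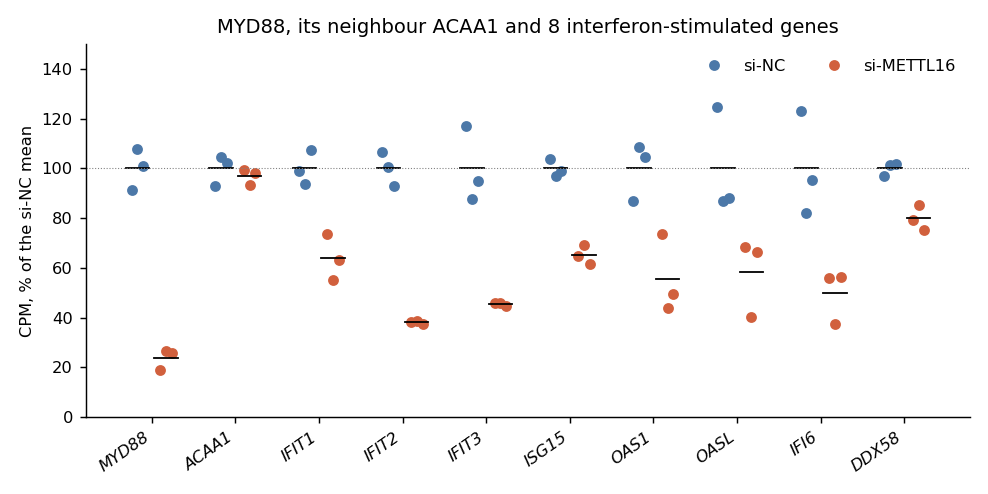
Level of MYD88, its neighbour ACAA1 and the 8 tested interferon-stimulated genes in each sample, as a percent of the si-NC mean CPM of the gene, with a bar at each group mean. The si-METTL16 means are 23.8% for MYD88, 38.1% for IFIT2 and 45.5% for IFIT3, while ACAA1 is at 97.0%.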

How the data were processed

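RNA-seq was measured in 6 PANC-1 samples, 3 si-NC and 3 si-METTL16, grouped and numbered from their titles. The authors deposited 1 table with raw counts per gene, without normalization, and FPKM, which is the count divided by a gene length and the total count of the sample. The submitters' processing notes name HISAT2 2.0.4, StringTie 1.3.0 and GRCh38. The counting program, the annotation release and the use of strand are not given in the sources used here. Columns with the authors' own comparison (fold changes and p-values) were not used.

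The edgeR package (4.0.16, R 4.3.3) was used for TMM scaling of the counts to CPM, for the filter on low counts (filterByExpr, minimum count 10, minimum total count 15) and for the quasi-likelihood test between groups (glmQLFit, then glmQLFTest), adjusted by Benjamini-Hochberg over all 15089 genes at a threshold of 0.05. The methods name limma, and a test on counts was preferred because raw counts were deposited. The common biological coefficient of variation was 16.5%. No 2 samples agreed within sampling noise. p-values measure the spread between these samples, which may be partly technical. Floors of 3 counts cover counting error only, while the SD and SE values include the spread between samples. After the group means were subtracted, si-NC and si-METTL16 samples with the same number correlated at 0.0253, 0.0371 and 0.0298. Samples with different numbers correlated between -0.0388 and 0.00827, below each of these values. As all were small and no label names a shared batch, the numbers were not taken as pairs in the main fit. A fit with a replicate block is among the alternatives, and some calls differ in it.

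MYD88 was given no test because it was chosen on these samples, and the members and gene lists were chosen with earlier results of these data known. The genes named in the text are the 10 genes, METTL16, up to 3 called genes with the largest change and the most abundant gene (by FPKM) of each list, the neighbours and overlapping genes, and the 5 most alike profiles; others are marked where they appear. The alternatives were a replicate block, each sample left out, no filter, a minimum of 10 counts per sample for each gene, size factors of DESeq2 1.42.0 in edgeR, its Wald test, limma 3.58.1 with voom, the same package with log2(FPKM + 1) or log2(FPKM + 0.1) and a mean FPKM of at least 1, and an adjusted p under 0.01. Scripts were tested on simulated data. Promoters are from RefSeq (GRCh38.p14) and transcripts from GENCODE v44. One further gene of the interferon list is not reported here and is left out of its counts. The other experiments of the study were not analysed here.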

Additional observations from a re-analysis of the deposited data

How the results depend on the processing

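MYD88 stayed lower under all 14 alternatives, with log2 fold changes from -2.16 to -1.94 with each sample left out, and -1.44 with limma on log2(FPKM + 1), where the pseudocount draws the low values in. At an adjusted p under 0.01, edgeR called 3035 of all genes, 0 of the 9 partners as higher, and 2 higher and 9 lower of the 68 pathway genes. Of the 9 partners, the count called higher was 1 with the DESeq2 Wald test and 0 with no filter on low counts, where more genes are tested. With each sample left out, all-gene counts went from 4159 to 4526, partners called higher from 0 to 3 and lower from 1 to 2, and pathway genes called higher from 4 to 7 and lower from 13 to 18.

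The replicate block, a paired fit on the numbers of the titles, gave -2.08 for MYD88 and called 5013 genes, with 1 partner higher and 2 lower. TOLLIP then passed (-0.56, adjusted p = 0.0473) and TRAF6 did not (0.35, adjusted p = 0.0625); SIGIRR passed (-0.76, adjusted p = 0.0407), and CD14 (-1.04, adjusted p = 0.0791) and NFKBIZ (1.10, adjusted p = 0.0506) did not. Among the pathway genes it called 8 higher and 18 lower. Every sample correlated best with its own number, a hint from the data only. TBK1 (-0.04) ranged from -0.07 with 1 sample left out to 0.00, just on the positive side, without si-METTL16 replicate 3 or si-NC replicate 1.

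The length used for levels between genes was varied after seeing the data, and moved the si-NC rank of MYD88 from 3 to 4 (MANE transcript) or 5 (deposited FPKM) and its si-METTL16 rank from 7 to 10 (deposited FPKM). For the other results that changed side the cause was not tested. With 3 samples a group, differences of the size seen in IRAK1, TIRAP or MAP3K7 lie near what the spread allows to be called, and for receptors near the floor of 3 counts the part of depth was not tested.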
